A study of Mus musculus with 11 samples.

Results

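A small group of nuclear transcripts was detected in total nuclear RNA of mouse embryonic fibroblasts (MEFs), both with HuR (HuR WT) and without it (HuR KO), but stayed under the detection limit in every anti-hnRNP A1 immunoprecipitate (IP). It holds 97 of the 45281 probes of the array. The members were chosen by their detection p-values, which set each signal against the array's own negative controls: at most 0.01 on all 5 nuclear RNA arrays and above 0.01 on all 6 IP arrays. Signals in nuclear RNA and in the IP therefore chose the group, and the gap between them is described below without a test.

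HnRNP A1, an abundant RNA-binding protein of the nucleus, is best known for its part in the choice of splice sites. HuR belongs to the ELAV family, is mostly nuclear and is best known for binding AU-rich elements and stabilising short-lived mRNAs. In RIP-Chip an antibody brings down a protein with its associated RNA, and the RNA is then measured on a microarray. A transcript not detected in such a pellet can be one that the protein does not hold or one too scarce to be measured there.

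The samples were 2 arrays of nuclear RNA and 3 of IP RNA from HuR WT MEFs, and 3 arrays of each from HuR KO MEFs, the knockout cells isolated from HuR-deficient embryos. Nuclear RNA was the input of the IP, which used the monoclonal antibody 4B10 after pre-clearing of the extract with mouse IgG2. The submitters describe the replicates as independent experiments, with 1 HuR WT nuclear RNA sample lost to quality control. How many embryos each genotype came from is not stated, so that HuR and other differences between the cultures cannot be told apart. No array of an IgG control pellet was analysed here. The paper made such pellets and reports that they held far less RNA than the anti-hnRNP A1 pellets, too little for a microarray. The KO cells are described as slower growing. In bulk RNA a transcript of fewer cells and a transcript at a lower level per cell cannot be told apart.

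The arrays were MouseWG-6 v2 BeadChips with 13737 to 16206 probes detected per array. Both HuR KO replicate 1 arrays stood apart. Over the 16045 probes kept for testing, nuclear RNA arrays of HuR KO correlated with each other at 0.941 to 0.995, the lower values involving replicate 1, and the KO IP arrays at 0.926 to 0.989. No table used here links a probe identifier to its gene. The members are therefore given as probes, and neither their functions, the fibroblast markers nor the loss of HuR mRNA itself could be examined.

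Most probes detected in nuclear RNA were also detected in the hnRNP A1 IP. Detection there does not by itself show association with hnRNP A1. The paper labelled the same mass of RNA from either fraction, and it counted as targets only transcripts enriched over 2-fold against nuclear RNA. Of the 12475 probes detected on all 5 nuclear RNA arrays, 11028 (88.4%) were detected on all 6 IP arrays. Another 525 probes were detected on 5 IP arrays, 303 on 4, 296 on 3, 138 on 2 and 88 on 1. The 97 probes detected on none were 0.778% of the 12475. The reverse pattern was rarer. Of the 11573 probes detected on all 6 IP arrays, 23 (0.199%) were detected on no nuclear RNA array.

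Each cell type by itself gave a longer list of nuclear probes undetected in the IP. In HuR WT, 316 of the 12475 probes were detected on none of the 3 IP arrays, and in HuR KO 259 were. The 97 members are the probes in both lists, 30.7% of the HuR WT list and 37.5% of the HuR KO list. Detection on all IP arrays of one cell type and none of the other occurred at similar numbers of probes in each direction. These counts record crossings of the detection limit, not sizes of change in signal. Of the 12475 probes, 103 were detected on all 3 IP arrays of HuR WT and on none of HuR KO, and 88 showed the opposite pattern.

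The members were faint in nuclear RNA. Their mean normalized log2 signal over the 5 nuclear RNA arrays ran from 5.53 to 7.49 with a median of 6.02, against a median of 8.14 for the 12475 probes. Only 5.35% of the 12475 probes lay below the median member. By array, the members' log2 signals ran from 5.18 to 7.81 with a median of 5.90 in HuR WT replicate 1, and from 5.31 to 7.40 with a median of 5.89 in replicate 2. In HuR KO they ran from 5.61 to 7.86 (median 6.03), from 5.41 to 7.45 (median 6.05) and from 5.46 to 7.57 (median 6.04) in replicates 1, 2 and 3. The lowest signals detected on these arrays were 5.18, 5.28, 5.59, 5.41 and 5.42 in the same order, so that the dimmest members lay at the edge of detection on each.

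On the deposited intensity scale, before any normalization, the median member read 54.9 and 52.5 on the HuR WT nuclear RNA arrays. On those of HuR KO it read 38.1, 74.2 and 64.0. On the IP arrays it read 12.8, 20.2 and 18.1 in HuR WT and 4.84, 8.35 and 8.74 in HuR KO. The HuR KO IP values lay below all HuR WT IP values, but on these arrays the median of all probes on the chip was also lower, at 3.92 to 4.89 in the HuR KO IP and 5.39 to 8.73 in the HuR WT IP.

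**Figure D1:**
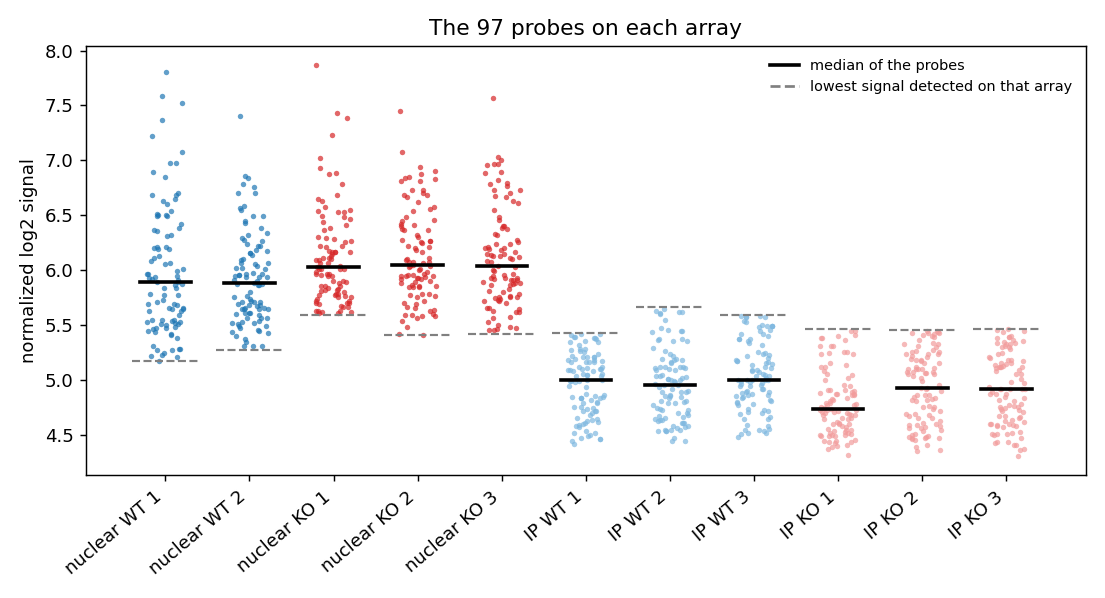
Normalized log2 signal (y axis) of each of the 97 probes (points) on each of the 11 arrays (x axis), with the median of the probes (black bar) and the lowest signal detected on that array (dashed line). All points of the nuclear RNA arrays lie at or above the dashed line and all points of the IP arrays below it, which is how the probes were chosen; the array medians are 5.89 to 6.05 in nuclear RNA and 4.74 to 5.01 in the IP.

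The share of nuclear probes undetected on every IP array fell with the nuclear level. Between log2 signals of 5.5 and 6 it was 7.41% (46 of 621 probes), between 6 and 6.5 it was 3.01% (37 of 1231), between 6.5 and 7 it was 0.929% (13 of 1400) and between 7 and 7.5 it was 0.0733% (1 of 1364). Of the 7857 probes above 7.5 none was a member, and 7810 (99.4%) were detected on all 6 IP arrays. The share detected on all 6 IP arrays rose over the same levels, from 30.4% between 5.5 and 6 through 57.4% and 77.5% to 90.8% between 7 and 7.5. Within the members' own range of nuclear levels lay 4586 probes, of which 3193 (69.6%) were detected on all 6 IP arrays and 1296 on 1 to 5.

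**Figure D2:**
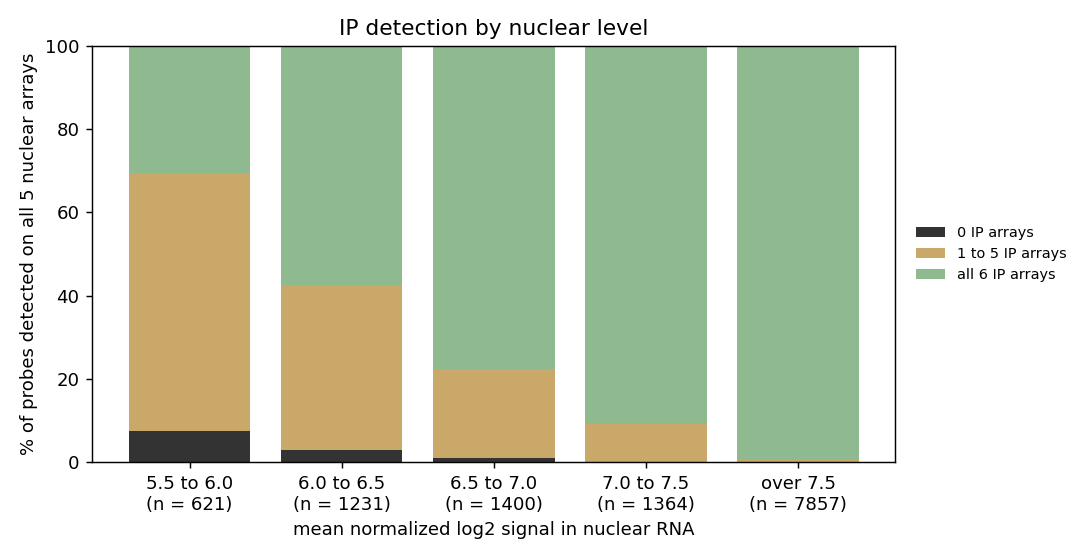
Share of probes (y axis, percent) detected on 0, on 1 to 5 and on all 6 IP arrays, among probes detected on all 5 nuclear RNA arrays, by mean normalized log2 signal in nuclear RNA (x axis, with the number of probes in each bin; the 2 probes below 5.5 are not drawn). The share on 0 IP arrays, the 97 members, is 7.41% in the lowest bin drawn and 0.0733% between 7 and 7.5.

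In the IP the members were below the detection limit but mostly not at the level of an empty spot. The median member had a detection p of 0.0620, 0.0748 and 0.0726 on the HuR WT IP arrays and of 0.168, 0.0833 and 0.0748 on those of HuR KO. The 25907 probes detected on no array of the series had medians of 0.504 to 0.533 on these 6 arrays. On each IP array 34 to 63 of the 97 members had a detection p under 0.1 (35.1% to 64.9%), against 6.67% to 9.63% of the probes never detected. The rule set no upper limit on the nuclear signal, and it capped the IP signal of the members and of the never detected probes alike.

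Between 3 and 17 members per IP array had an intensity below 0, and 58 of the 97 were above 0 on all 6. On all 6 arrays 14 members had a detection p above 0.05, and 4 had one above 0.1. These 4 were the members farthest from detection in the IP. The rule's limit cuts through a continuous range. The lowest IP detection p among the members was 0.0107, reached by 17 of them, whereas 11 of the 88 probes detected on a single IP array reached 0.00962 there and stayed outside. The 88 neighbours had a median nuclear log2 level of 5.98, close to the 6.02 of the members.

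Across the 97 probes, which share arrays and background and are not independent replicates, the HuR WT IP arrays correlated with each other at 0.49 to 0.54 and the HuR KO IP arrays at 0.20 to 0.39. Between an IP array of HuR WT and one of HuR KO the correlation was -0.00 to 0.19. In nuclear RNA the 2 HuR WT arrays correlated at 0.66 over the members, the HuR KO arrays at 0.47 to 0.86, and arrays of different genotype at 0.27 to 0.40. Over the probes kept, a set that spans the full range of signals, each pair of arrays correlated at 0.83 to 1.00.

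Because the IP values are below detection, the gap between nuclear RNA and IP has only a lower bound. It sets the mean nuclear log2 signal against the mean, over the IP arrays, of the lowest detected signal, which was 5.43 to 5.67 in HuR WT and 5.46 to 5.47 in HuR KO. The bound makes no allowance for spread between nuclear RNA replicates, and it was computed under the main processing only. These bounds were small. In HuR WT 75 members had a bound above 1-fold, the highest was 3.29-fold and 12 members exceeded 2-fold; 22 members had none, since their mean nuclear signal lay below the detection limit of the IP arrays. In HuR KO all 97 members had a bound above 1-fold, with a median of 1.5-fold and a maximum of 4.48-fold, and 19 exceeded 2-fold. That all 97 did was fixed in advance, since the lowest detected signals averaged higher on the KO nuclear RNA arrays than on the KO IP arrays. On the HuR WT nuclear RNA arrays they were 5.18 and 5.28, below those of the HuR WT IP arrays. These counts therefore do not compare the cell types. The measured gap had a median log2 value of 0.86 in HuR WT and 1.19 in HuR KO, where the offset of the background correction compresses it. With median scaling in place of quantile normalization the median gap was 0.92 in both cell types.

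Other probes in the same range of nuclear levels showed no such gap. The 4489 non-members in that range had a median log2 gap of -0.07 in HuR WT and 0.01 in HuR KO. With normalization within each fraction the median gap of all probes kept was 0.32 in each cell type (0.00 in HuR WT and 0.01 in HuR KO otherwise), and that of the members 1.10 and 1.46. The gap of the members thus exceeded that of the probes kept in either scaling, which is what the rule selects.

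At 3 members the bound exceeded 2-fold in both cell types. They are named here although they were picked out after their values were seen. ILMN_2975900 was the brightest member in nuclear RNA and the only one with a mean log2 level above 7. Its log2 signals in nuclear RNA were 7.81 and 6.75 in HuR WT and 7.86, 7.45 and 7.57 in HuR KO. In the IP they were 5.38, 4.80 and 5.20 in HuR WT and 4.88, 5.26 and 4.97 in HuR KO. It was at least 3.29-fold higher in nuclear RNA than in the IP of HuR WT and at least 4.48-fold higher in HuR KO.

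Of these 3 probes, ILMN_1258357 varied least between nuclear RNA arrays. Its log2 signals were 6.63 and 6.50 in HuR WT and 6.44, 6.73 and 6.73 in HuR KO nuclear RNA. In the IP they were 4.84, 4.61 and 5.09 in HuR WT and 4.82, 4.82 and 4.59 in HuR KO, with a lowest detection p of 0.0609. Nuclear RNA was at least 2.00-fold above the IP in HuR WT and at least 2.25-fold in HuR KO. At the third, ILMN_2666380, the bounds were 2.64-fold and 2.30-fold, and HuR KO replicate 1 was the low array in nuclear RNA, at 5.95 against 6.86 to 7.08 on the others.

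**Figure D3:**
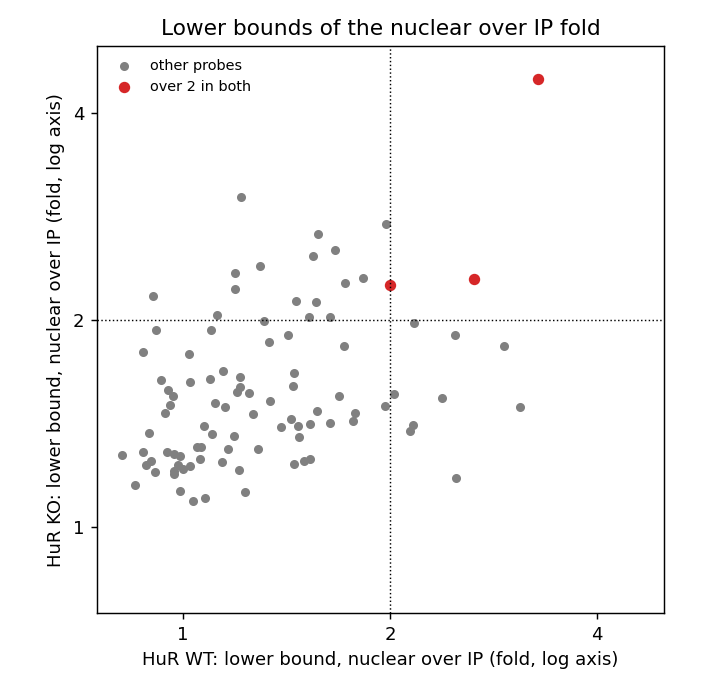
Lower bound of the fold of nuclear RNA over IP for each of the 97 probes in HuR WT (x axis) and HuR KO (y axis), both on a log axis; dotted lines mark 2-fold, and the 22 points left of 1 carry no fold in HuR WT. The 3 probes in red exceed 2-fold in both cell types, and the topmost, ILMN_2975900, lies at 3.29 and 4.48.

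Few of the members differed between HuR KO and HuR WT in nuclear RNA. This contrast was not part of the rule, which asked for detection on the nuclear RNA arrays of both genotypes alike, and all 97 members entered the test. The test was not fully apart from the rule, since the fit took its estimate of spread from nuclear RNA and IP arrays together. The rule had capped the members' IP signals. Calls needed more than a 2-fold difference and a Benjamini-Hochberg adjusted p below 0.05 in limma, over the 16045 probes kept. By this rule 2 members were higher and 2 lower in HuR KO, each 2.06% of the members. Over all probes kept 5.48% were higher and 6.35% lower. Among the 12475 probes detected on all 5 nuclear RNA arrays, from which the members come, 5.12% were higher and 3.85% lower. The members' shares lay below both backgrounds, a difference of a few probes that was not tested. Both backgrounds span all levels, and the share called changed with level. In the members' range of levels 4.74% of the 4489 other probes were higher and 3.27% lower. Between log2 levels of 5.5 and 6, where 46 of the members lie, none of the 621 probes was called in either direction. Between 6 and 6.5, with 37 members, 33 of 1231 probes were higher and 19 lower. Between 6.5 and 7, with 13 members, 105 of 1400 were higher and 64 lower. The small number of calls is therefore not read as a trait of the members.

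ILMN_2937548 was higher in HuR KO. Its log2 signals in nuclear RNA were 5.96 and 5.73 in HuR WT against 7.43, 6.85 and 6.89 in HuR KO, with no overlap. The means were 5.84 ± 0.17 (SD, n = 2) and 7.06 ± 0.33 (SD, n = 3), a 2.32-fold difference. By limma the log2 change was 1.21 with a standard error of 0.25 and an adjusted p of 0.00721. In the IP its log2 signals were 4.72, 4.54 and 5.12 in HuR WT and 4.87, 5.15 and 5.34 in HuR KO, all below detection, as the rule requires. The bound of nuclear RNA over IP was 3.02-fold in HuR KO and 1.21-fold in HuR WT.

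ILMN_1252983, the other probe with a higher level in HuR KO, rests on faint HuR WT signals. These were 5.25 and 5.59, close to the lowest detected signals of 5.18 and 5.28, against 7.23, 6.37 and 6.13 in HuR KO. By limma the log2 change was 1.16 with a standard error of 0.30 and an adjusted p of 0.0227. Without HuR KO nuclear RNA replicate 1, the highest array, the log2 change was 0.84 and the 2-fold threshold was missed.

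ILMN_2579578 was lower in HuR KO. Its log2 signals were 6.98 and 7.40 in HuR WT and 6.29, 6.20 and 5.62 in HuR KO, again with no overlap. The means of 7.19 ± 0.30 (SD, n = 2) and 6.04 ± 0.36 (SD, n = 3) differed 2.22-fold. By limma the log2 change was -1.15 with a standard error of 0.24 and an adjusted p of 0.00693. In the IP of HuR WT, the cell type with the higher nuclear level, its log2 signals were 4.80, 4.96 and 4.70. The bound of nuclear RNA over IP was 3.09-fold there.

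ILMN_2459519 was the other lower probe. Its log2 signals in nuclear RNA were 6.98 and 6.79 in HuR WT and 5.85, 5.42 and 5.83 in HuR KO. By limma the log2 change was -1.18 with a standard error of 0.29 and an adjusted p of 0.0174. In the IP of HuR WT it was even, at 4.86, 4.89 and 4.91. In that of HuR KO replicate 1 it reached 5.41 with the other arrays at 4.39 and 4.41.

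**Figure D4:**
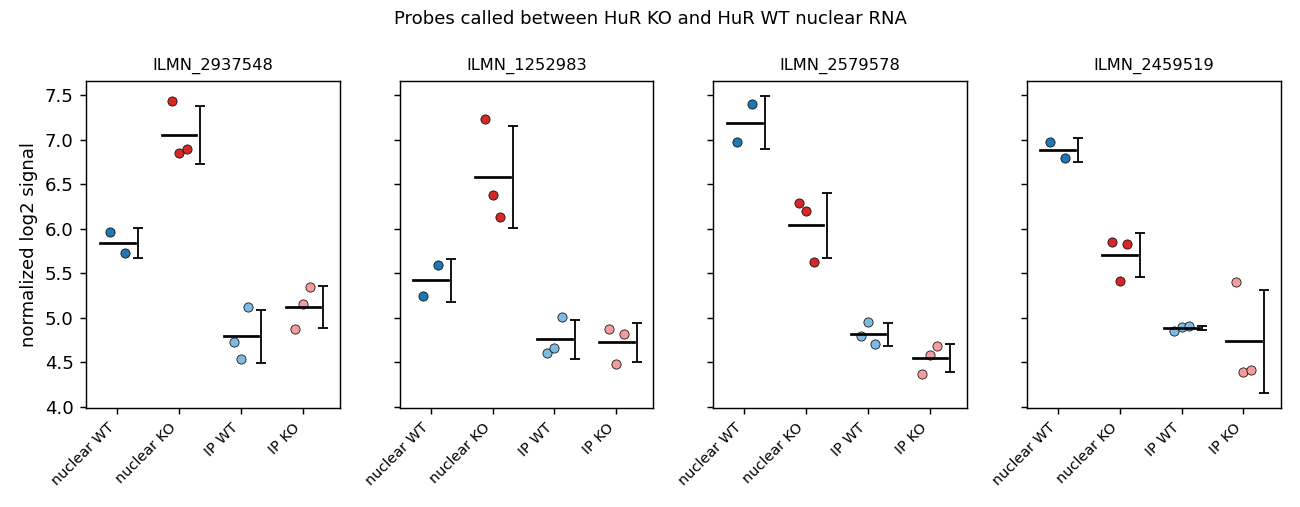
Normalized log2 signal (y axis) of the 4 probes called between HuR KO and HuR WT nuclear RNA, by group (x axis); points are arrays, black bars the means and error bars the SD (n = 2 for HuR WT nuclear RNA, n = 3 otherwise). The nuclear RNA points of the genotypes do not overlap at any of the 4 probes, and the IP points lie at 5.41 or below in all.

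These calls rest on few arrays and on the processing. When the offset was set to 50, all 4 log2 changes shrank to sizes of 0.77 to 0.87, under 2-fold. The methods' t-test on the same values gave the 4 probes adjusted p-values of 0.0949 to 0.244. With the nuclear RNA arrays alone in the fit, limma's adjusted p was 0.0285 for ILMN_2937548, 0.0443 for ILMN_2579578 and 0.0210 for ILMN_2459519. For ILMN_1252983 it was 0.0808, and that probe was not called. Without background correction the log2 changes were larger, 1.49 and 1.56 upward and -1.39 and -1.50 downward, and limma's adjusted p was 0.193 to 0.434. With nuclear WT replicate 2 left out, each of the 4 probes failed a threshold, with an adjusted p of 0.0511 to 0.0587 from limma, and other members were called instead (1 higher, 2 lower). ILMN_2459519 failed it as well without nuclear WT replicate 1 or nuclear KO replicate 2, where its adjusted p was 0.122 and 0.0602, and ILMN_1252983 without nuclear WT replicate 1, at 0.176. The log2 change of ILMN_2579578 was -0.94 without nuclear KO replicate 3, under the 2-fold threshold. Without both arrays of HuR KO replicate 1, 4 members were higher and 2 lower.

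Beyond the 4 calls no member differed over 2-fold between the genotypes. More members lay above than below 0. The log2 change had a median of 0.22 and was above 0 for 67 members (69.1%), against a median of 0.01 and 50.3% over the probes kept. The other 4489 probes in the members' range had a median of 0.12 with 58.2% above 0. Between log2 levels of 5.5 and 6 the change was above 0 for 78.3% of the 46 members and for 76.7% of the 575 other probes, with medians of 0.22 and 0.23. Between 6 and 6.5 the shares were 59.5% of 37 members and 60.4% of 1194 other probes, with medians of 0.20 and 0.16. Between 6.5 and 7 they were 61.5% of 13 members and 54.2% of 1387 other probes, with medians of 0.23 and 0.05. Members and other probes were thus close in the lower bins and less so in the highest of the 3, which holds few members. With median scaling the members' median was 0.11 and 59 lay above 0.

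Across the arrays, every HuR KO nuclear RNA array lay above every HuR WT array at 34 of the 97 members and below at 11 of the 97. These patterns were found at 25.7% and 24.7% of the 16045 probes kept. The probes kept span all levels and are not limited to the members' range.

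**Figure D5:**
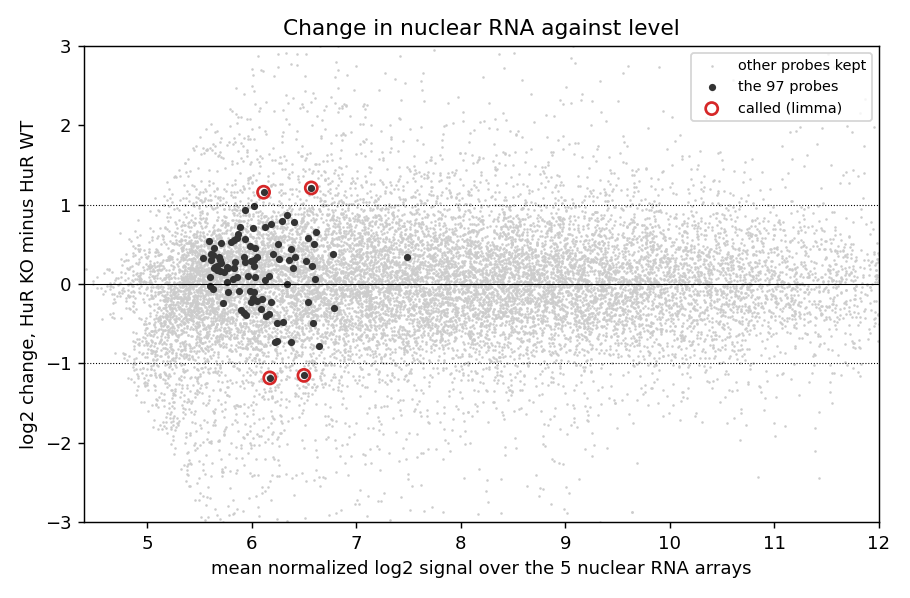
Log2 change in nuclear RNA, HuR KO minus HuR WT (y axis), against the mean normalized log2 signal over the 5 nuclear RNA arrays (x axis) for the 97 probes (black) and the other probes kept (grey; those beyond the axes are not drawn). Red circles mark the 4 probes called by limma, and dotted lines the 2-fold threshold; the 97 probes lie between -1.18 and 1.21 on the y axis and at or below 7.49 on the x axis.

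The size of the group depended on HuR KO nuclear RNA replicate 1. Without this array 212 probes met the rule in place of 97. The 115 probes that joined had a median log2 signal of 5.0 on that array, with a median detection p of 0.0705, and of 5.73 over the other nuclear RNA arrays, where the members had 6.0. Leaving out any other array gave 102 to 120 probes. A stricter demand on either side shortened the list. With a detection p of at most 0.001 in nuclear RNA 21 of the members remained, and with one above 0.05 on every IP array 14 did.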

How the data were processed

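The authors deposited 1 intensity and 1 detection p-value per probe and array, with no normalization between arrays. Since 31.6% to 36.5% of the intensities of an array are negative, background had probably been subtracted; the software used for that is not stated. The methods name background correction, quantile normalization, log2 transformation and a t-test. The background model used here was therefore applied to intensities that had probably been corrected once already. One detection column labelled HuR KO nuclear RNA replicate 1 stands beside the signal of replicate 3 and was read as that array's.

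Here limma 3.58.1 in R 4.3.3 was used: the normexp background model (offset 16), quantile normalization, log2, and 1 linear model of the 4 group means with moderated variances. The 16045 probes with a detection p of at most 0.01 on every array of a group were tested, called at a Benjamini-Hochberg adjusted p under 0.05 and over 2-fold. The model was tested on simulated data with independent noise and changes larger than those called among the members. That run does not cover changes as small as the members' calls. Arrays limit precision by their number.

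The members and lists were chosen with earlier results of these data known. Named are the probes called in nuclear RNA, at most 2 per direction, plus 3 picked afterwards. Without gene names the planned gene lists, marker check and other probes of the same gene were left out. Alternatives covered background, scaling, filter, test, pairing and each array.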

Additional observations from a re-analysis of the deposited data

How the results depend on the processing

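Gaps to the IP and calls near the threshold moved with the processing; the causes were not tested. With an offset of 50 limma called 0 members in either direction (17 higher and 6 lower at an unadjusted p under 0.05) and the median log2 gap of nuclear RNA over IP was 0.46 in HuR WT and 0.68 in HuR KO. Without background correction 1 member was higher and 0 lower, and the gaps were 1.70 and 2.68. With median scaling the gap in HuR KO was 0.92, and with quantile normalization within each fraction the gaps were 1.10 and 1.46. The methods' t-test called 0 members in either direction (15 higher and 3 lower at an unadjusted p under 0.05). Without a detection filter, and with the nuclear RNA arrays alone, 1 member was higher. Array weights gave 4 higher, as did the fit without both arrays of HuR KO replicate 1, and with no fold threshold 6 were higher. Leaving out 1 array at a time gave 1 to 4 higher and 1 to 2 lower members and 102 to 212 members in all; the single arrays that moved a count over 1.5 times were both HuR WT nuclear RNA arrays (1 higher each, 1 lower without replicate 1) and those of HuR KO replicate 1 (4 higher), 2 and 3 (1 lower each). The gaps were then 0.83 to 0.94 (HuR WT) and 1.16 to 1.28 (HuR KO). The number of members was 14 with an IP detection p above 0.05, 21 with a nuclear detection p of at most 0.001 and 240 without both arrays of HuR KO replicate 1. A limit of 0.05 in both fractions gave 69 members, of which 14 are among the 97. The median change between genotypes kept its direction in all 16 alternatives run for it, at 0.11 to 0.30.

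Arrays of nuclear RNA share only a replicate number between the genotypes: same-numbered arrays deviated from their group means with correlations of -0.07 and -0.07. The 2 HuR WT arrays deviate as mirror images of each other, so pairs of different number gave 0.07 or -0.07 as well. With the replicate number as a block 2 members were higher and 2 lower, as they were with nuclear RNA and IP of 1 extract as a random block. The probes of the members' genes could not be compared, since no probe was paired with a gene. Signals near background limit all values given for the IP.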
